A study of Urocitellus parryii with 3 samples.

Results

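The miR-15, miR-16, miR-195 and miR-497 family was described in small-RNA libraries of liver from a hibernating rodent, the arctic ground squirrel (Urocitellus parryii). Its 5 members are miR-15a-5p, miR-15b-5p, miR-16-5p, miR-195-5p and miR-497-5p. A deposited read was counted for a member when its first 18 bases were those of the member's mature 5p form, at any 3′ end. These reads numbered 3201, out of 15975995 reads of the 107 listed miRNAs that had at least 1 read, and 134 miRNAs were searched for in all. The members were chosen by sequence and not by their levels, though with earlier results of these data known.

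The study compared 3 stages. Early arousal animals were rewarming from torpor, late torpor animals were deep in a torpor bout, and post-reproduction animals were warm, non-hibernating summer animals. Both hibernating groups were wild-caught animals kept under 4 h of light and 20 h of dark with implanted temperature transmitters, and post-reproduction animals were under 16 h of light and 8 h of dark. Per the labels, hibernating animals went through at least 4 torpor bouts and were decapitated on day 4 of a bout, with nothing further on how that day applies to early arousal, while summer animals were first anaesthetised with isoflurane. Light cycle and anaesthesia thus cannot be told apart from hibernation. No strain, sex or age is given in the labels used here. RNA was pooled within a stage from 4 early arousal, 4 late torpor and 6 post-reproduction animals, so each stage is 1 library, no test between stages was possible and no p-value is given. Every ratio compares 2 libraries. Intervals are exact 95% intervals for counting error only, since each stage is 1 library. PCR copies cannot be told from separate molecules, so the intervals may be too narrow even for that.

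A miRNA guides repression of messenger RNAs that pair with its seed, bases 2 to 8 from its 5′ end. All 5 members share 1 seed, so they are expected to recognise overlapping sets of targets. In human and mouse cells the family is known for restraining cell cycle genes such as cyclin D1, and human miR-15a and miR-16 also repress the survival gene BCL2. In mouse heart, miR-195 is known for its part in the exit of cardiomyocytes from the cell cycle after birth. In mammals the members are made from clustered hairpins: miR-15a with one copy of miR-16, miR-15b with another, and miR-195 with miR-497.

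The most frequent insert of each member, which is the part of a read before the 3′ adapter, shows what the family shares and where it differs. Letters are those of the reads, 5′ to 3′, with T for U, and the seed is in capitals.
miR-16-5p: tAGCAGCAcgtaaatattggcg
miR-195-5p: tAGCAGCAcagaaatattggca
miR-15a-5p: tAGCAGCAcataatggtttgt
miR-15b-5p: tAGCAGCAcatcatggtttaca
miR-497-5p: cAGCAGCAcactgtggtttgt

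The members differed from one another at 1 to 8 of their first 18 bases. miR-15a-5p and miR-15b-5p differed by the substitution A12C alone, with positions counted from 1 at the 5′ end and the base of the miRNA named first given first. miR-16-5p and miR-195-5p differed by G10A and T11G, while miR-16-5p and miR-497-5p were the least alike, with 8 differences. Because 1 base separates miR-15a-5p from miR-15b-5p, their 3′ parts were compared as a check on mixed-up reads. Of the miR-15b-5p reads none carried TGT, the usual bases 19 to 21 of miR-15a-5p, and 107 carried TAC. Of the miR-15a-5p reads 372 carried TGT and 3 carried TAC. A further 56 of the 169 miR-15b-5p reads and 44 of the 434 miR-15a-5p reads were too short or had no adapter and could not be checked.

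Among the placed reads, few from other RNAs carried the seed. Reads with the family seed at bases 2 to 8 numbered 3446, of which the 5 members made up 92.9%. Beside the members, 2 further starts with the seed held 10 reads or more.
miR-424-5p: cAGCAGCAattcatgttttga
miR-103-3p or miR-107-3p, start 1 base upstream: aAGCAGCAttgtacagggctat

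miR-424-5p, a same-seed relative also called miR-322-5p in mouse, had 51 reads in early arousal, 46 in late torpor and 43 in post-reproduction. All 3 of its comparisons had intervals that held 1, with ratios of 1.13 for early arousal over post-reproduction, 1.07 for late torpor over post-reproduction and 1.05 for early arousal over late torpor. Reads of miR-103-3p or miR-107-3p that began 1 base early numbered 17 in early arousal, 16 in late torpor and 14 in post-reproduction, and that shift alone puts the family seed in place. miR-503-5p, usually made with miR-424-5p, had no placed read. The table lists placed reads only, and 27 of the 134 listed miRNAs had none, among them miR-22-3p and miR-192-5p, which are usually abundant in liver and are named here for their values. Having no placed read therefore sets no limit on a miRNA's level. A further 39 different 18-base starts with the seed had under 10 reads each and 58 in all.

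The reads lay on 3 pairs of hairpins, each pair on 1 strand of 1 scaffold. The build of these scaffolds is not stated in the sources at hand. miR-15a-5p began at base 4330 of scaffold_6886 on the plus strand and a copy of miR-16-5p began 142 bases further on, at 4472. miR-15b-5p began at 387346 of GeneScaffold_5005 on the plus strand and the other copy of miR-16-5p 147 bases on, at 387493. miR-497-5p began at 38598 of GeneScaffold_1366 on the minus strand and miR-195-5p 316 bases downstream, at 38282. Genes around them were not annotated here, so whether the hairpins are intronic was not examined.

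All 1756 miR-16-5p reads were placed at both copies, which share their first 23 bases, so the clusters' contributions could not be separated by level. The copies part at base 24 by T24A, with the base of scaffold_6886 first. Inserts of 24 nt or longer numbered 71, and 44 of them began with the shared 23 bases. The base of scaffold_6886 was found in 8 inserts of early arousal, 9 of late torpor and 6 of post-reproduction, and that of GeneScaffold_5005 in 5, 11 and 3 inserts of the same libraries in that order. Both bases also occur as additions to finished miRNAs, so these inserts do not measure the copies. miR-15b-5p was placed over its full length on GeneScaffold_5005 only. On GeneScaffold_1855 and scaffold_117544 nearly all of its reads matched over 18 bases and no further.

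The liver of these animals was recognisable in all 3 libraries by miR-122-5p, the main hepatocyte miRNA, which ranked first among the listed miRNAs in each. The libraries held 5172949 reads of listed miRNAs in early arousal, 5558432 in late torpor and 5244614 in post-reproduction, and the family made up 0.0216%, 0.0200% and 0.0186% of them in the same order. The family was thus a small part of the placed reads of listed miRNAs, and its members are measured from 49 to 685 reads each per library. Ligation and PCR favour some small RNAs over others, so the order of read levels need not be the order of molecules.

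miR-16-5p led the family in every library. It had 556 reads in early arousal, 685 in late torpor and 515 in post-reproduction, or 101, 131 and 98.3 CPM. CPM here are read counts divided by the scaled size of the library in listed miRNA reads, the usual normalised counts. miR-16-5p ranked 46th, 43rd and 45th among the listed miRNAs in that order of libraries. The late torpor level stood above the other two, whose intervals overlapped.

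miR-497-5p varied most between libraries. It had 190 reads in early arousal, 104 in late torpor and 135 in post-reproduction, or 34.4 CPM (29.7 to 39.7), 19.9 CPM (16.3 to 24.2) and 25.8 CPM (21.6 to 30.5). Early arousal was high and late torpor low, without overlap of their intervals, and the post-reproduction interval overlapped both. Its cluster partner miR-195-5p had 143 reads in early arousal, 126 in late torpor and 144 in post-reproduction, or 25.9, 24.2 and 27.5 CPM. Those 3 levels lay within each other's intervals, the widest running from 23.2 to 32.4 CPM in post-reproduction.

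miR-15a-5p had 172 reads in early arousal, 132 in late torpor and 130 in post-reproduction, or 31.2 CPM (26.7 to 36.2), 25.3 CPM (21.2 to 30.0) and 24.8 CPM (20.7 to 29.5). Early arousal was the highest, with intervals that overlapped those of both other libraries. miR-15b-5p was the scarcest member, with 56 reads in early arousal, 64 in late torpor and 49 in post-reproduction, or 10.1, 12.3 and 9.35 CPM. Its intervals overlapped in all 3 libraries.

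Within each library miR-16-5p came first and miR-15b-5p last, both clear of the other members' intervals. The 3 members between them did not keep 1 order. In early arousal it ran miR-497-5p, miR-15a-5p, miR-195-5p, in late torpor miR-15a-5p, miR-195-5p, miR-497-5p, and in post-reproduction miR-195-5p, miR-497-5p, miR-15a-5p. Neighbours in these orders overlapped in their intervals.

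**Figure D1:**
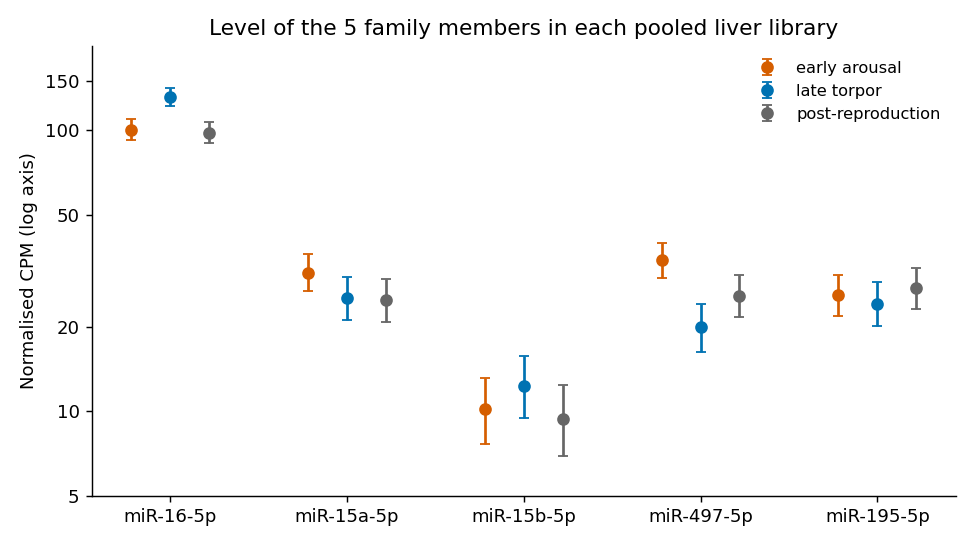
Normalised CPM (log axis) of the 5 members in the early arousal, late torpor and post-reproduction libraries, with 1 pooled library per point and bars for exact 95% counting intervals. miR-16-5p lies near 100 CPM or above and is highest in late torpor at 131 CPM, while miR-497-5p is highest in early arousal at 34.4 CPM and lowest in late torpor at 19.9 CPM.

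Early arousal was set against post-reproduction to see how livers of rewarming animals differed from summer livers. No member differed by 1.5-fold, against 20.8% of the 77 listed miRNAs that had 100 reads or more in the libraries compared. The member with the largest ratio was miR-497-5p at 1.34 (1.07 to 1.68), and its interval was the only one above 1, where 40.3% of the listed miRNAs had such an interval. The ratio was 1.26 (0.995 to 1.59) for miR-15a-5p, 1.09 (0.726 to 1.63) for miR-15b-5p, 1.03 (0.908 to 1.16) for miR-16-5p and 0.943 (0.743 to 1.20) for miR-195-5p. Under the 3 other scalings the interval of miR-15a-5p lay above 1 too. No member's interval lay below 1, where 36.4% of listed miRNAs had theirs. The median of the members was 1.09 and that of the listed miRNAs 0.987. The summed family stood at 202 CPM in early arousal and 186 CPM in post-reproduction, a ratio of 1.09 (0.999 to 1.19). miR-16-5p and miR-195-5p crossed 1 under some alternatives, with ranges of 0.976 to 1.09 and 0.918 to 1.03. Deeply sequenced miRNAs have narrow intervals, so the share of intervals that exclude 1 also reflects depth.

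Late torpor was set against post-reproduction to see how deep torpor differed from the summer state. Here the family's most abundant member was higher in late torpor: miR-16-5p had a ratio of 1.34, which is 0.42 on the log2 scale (interval 0.25 to 0.59). It was the only member whose interval lay above 1, where 25.6% of 78 listed miRNAs had such an interval, and none lay below 1, against 34.6%. In 4 of 9 alternatives, 2 of them other scalings, the interval of miR-497-5p did lie below 1. No member differed by 1.5-fold, against 11.5% of the listed miRNAs. The members of the other cluster lay on the low side, miR-497-5p at 0.774 (0.594 to 1.01) and miR-195-5p at 0.879 (0.687 to 1.12). miR-15b-5p had a ratio of 1.31 (0.891 to 1.94) from few reads, and miR-15a-5p one of 1.02 (0.795 to 1.31). Under the alternatives miR-15a-5p ran from 0.958 to 1.10 and so crossed 1. The median of the members was 1.02 and that of the listed miRNAs 0.979. The summed family was at 213 CPM in late torpor and 186 CPM in post-reproduction, a ratio of 1.15 (1.05 to 1.25). That ratio rests on miR-16-5p: without multiply placed reads, which takes away all miR-16-5p and miR-15b-5p reads, it was 0.892 (0.772 to 1.03).

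Early arousal was set against late torpor to see what differed within hibernation as animals rewarmed. The members lay on opposite sides of 1, miR-497-5p higher and miR-16-5p lower in early arousal. miR-497-5p had a ratio of 1.73 (1.35 to 2.21) and was the only member past 1.5-fold, against 15.4% of 78 listed miRNAs in either direction and 7.69% in the higher one. miR-16-5p had a ratio of 0.767 (0.685 to 0.859). These were the members whose intervals excluded 1, which 30.8% of listed miRNAs did on the higher side and 34.6% on the lower. Under 2 of 9 alternatives, both scalings, the miR-15a-5p interval also lay above 1, and under 1 of 8, with 1 mismatch accepted, that of miR-15b-5p lay below 1. The ratio was 1.23 (0.976 to 1.56) for miR-15a-5p, 0.827 (0.567 to 1.20) for miR-15b-5p and 1.07 (0.838 to 1.37) for miR-195-5p, the last with a range of 0.960 to 1.22 under the alternatives. Over the alternatives miR-497-5p ran from 1.51 to 1.96 and miR-16-5p from 0.693 to 0.872. The median of the members was 1.07 and that of the listed miRNAs 0.989. The family sum did not show these opposite differences, with 202 CPM in early arousal and 213 CPM in late torpor and a ratio of 0.950 (0.874 to 1.03), which turned to 1.08 under plain scaling, 1.05 under scaling to all placed reads and 1.30 without multiply placed reads. The 3 comparisons share libraries in pairs, so their ratios are not independent of each other.

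**Figure D2:**
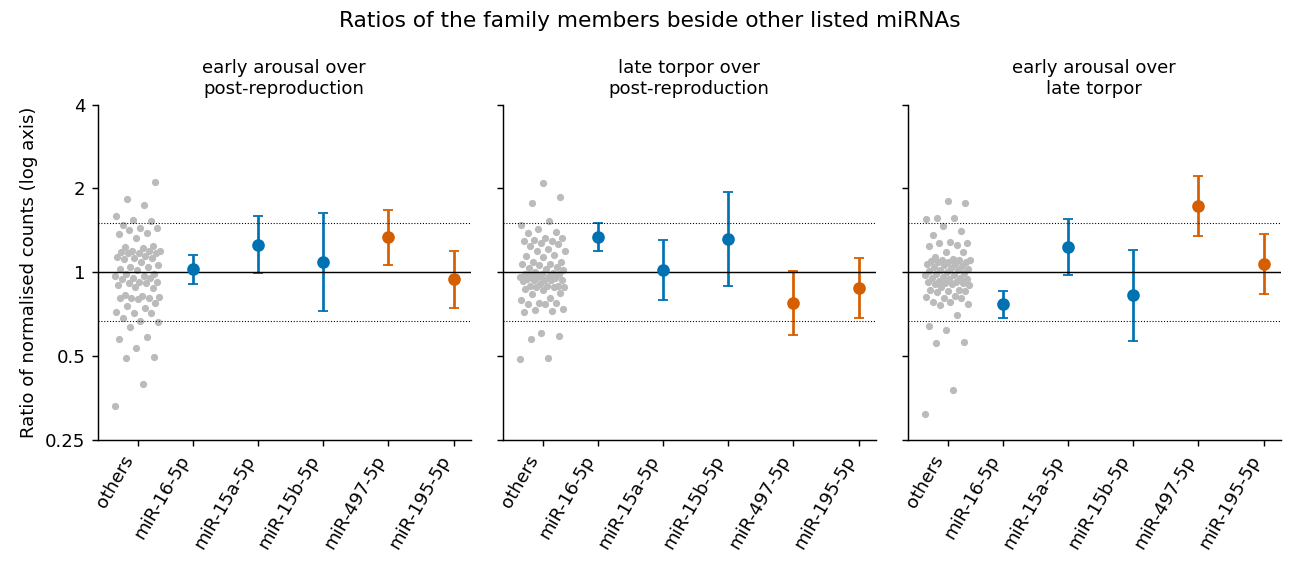
Ratio of normalised counts (log axis) in the 3 comparisons for the members miR-16-5p, miR-15a-5p and miR-15b-5p (blue) and miR-497-5p and miR-195-5p (orange), with exact 95% counting intervals, beside the other listed miRNAs with at least 100 reads over both libraries (grey points). Dotted lines mark 1.5-fold, and among the members only miR-497-5p, at 1.73 in early arousal over late torpor, lies past them.

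The make-up of the family does not depend on how libraries are scaled. miR-16-5p took 49.8% of the family's reads in early arousal (46.8 to 52.8), 61.7% in late torpor (58.7 to 64.5) and 52.9% in post-reproduction (49.7 to 56.1). miR-497-5p took 17.0% (14.9 to 19.3), 9.36% (7.71 to 11.2) and 13.9% (11.8 to 16.2) in the same order. Late torpor thus stood apart by a large miR-16-5p share and a small miR-497-5p share. The miR-15a-5p share was 15.4%, 11.9% and 13.4%, the miR-195-5p share 12.8%, 11.3% and 14.8%, and the miR-15b-5p share 5.01%, 5.76% and 5.04% in early arousal, late torpor and post-reproduction.

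**Figure D3:**
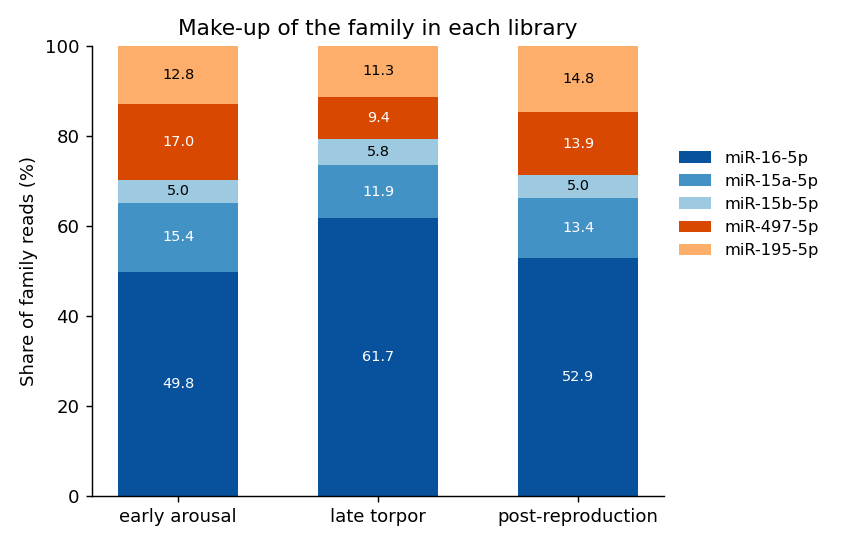
Share of the family's reads (%) taken by each member in the early arousal, late torpor and post-reproduction libraries. The miR-16-5p share is largest in late torpor at 61.7%, and the combined share of miR-497-5p and miR-195-5p (orange tones) is smallest there at 20.7%.

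Taken by cluster, the miR-497 and miR-195 cluster supplied 29.8% of family reads in early arousal, 20.7% in late torpor and 28.7% in post-reproduction. Its odds against the 2 miR-15 and miR-16 clusters together were 1.63 times as high in early arousal as in late torpor (1.33 to 1.98). In late torpor over post-reproduction they had an odds ratio of 0.650 (0.528 to 0.798), and in early arousal over post-reproduction one of 1.06 (0.871 to 1.28). miR-16-5p dominated the miR-15 and miR-16 side, with 685 of its 881 reads in late torpor. For miR-497-5p against miR-15a-5p every interval held 1. The odds ratios were 1.40 (0.995 to 1.98) in early arousal over late torpor and 0.759 (0.525 to 1.10) in late torpor over post-reproduction. For miR-195-5p against miR-16-5p they were 1.40 (1.06 to 1.84) and 0.658 (up to 0.865) in that order. Whether the clusters differ apart from miR-16-5p was not tested. In levels, miR-195-5p and miR-497-5p summed to 60.3 CPM in early arousal, 44.1 CPM in late torpor and 53.2 CPM in post-reproduction. The miR-15 and miR-16 members summed to 142, 169 and 132 CPM in these libraries.

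In the miR-497 and miR-195 cluster the proportion of the members' reads was different in early arousal from that in the other libraries. How often other cluster partners differ this much between single libraries was not tested. There were 1.33 miR-497-5p reads per miR-195-5p read in early arousal, 0.825 in late torpor and 0.938 in post-reproduction. The odds ratio between them was 1.61 (1.13 to 2.29) in early arousal over late torpor and 1.42 (1.02 to 1.98) in early arousal over post-reproduction, while that of late torpor over post-reproduction was 0.881 (0.611 to 1.27). miR-15a-5p against miR-16-5p, whose reads come from both of its copies and so give no proportion within 1 cluster, differed in the same comparison, with an odds ratio of 1.60 (1.24 to 2.09) in early arousal over late torpor. Its late torpor over post-reproduction value was 0.764 (0.579 to 1.01) and its early arousal over post-reproduction value 1.23 (0.940 to 1.60). For miR-15b-5p against miR-16-5p the odds ratios lay between 0.982 and 1.08 in the 3 comparisons, and every interval held 1. The contrast of miR-497-5p against miR-16-5p was 2.25 (1.72 to 2.96) in early arousal over late torpor and 0.579 (0.433 to 0.774) in late torpor over post-reproduction. It was the widest in these comparisons by construction, since these members had the highest and the lowest ratio in each. In early arousal over post-reproduction it was 1.30 (1.01 to 1.69).

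Marker miRNAs of other cell types also differed between these libraries. All 3 red-cell markers had reads, and their summed level was 139 CPM in early arousal, 306 CPM in late torpor and 184 CPM in post-reproduction. Like miR-16-5p, which red cells also contain, they were high in late torpor: miR-451a-5p, made in maturing red cells, had a late torpor over post-reproduction ratio of 2.10 (1.85 to 2.39) and an early arousal over late torpor ratio of 0.563 (0.499 to 0.634). miR-16-5p differed less than miR-451a-5p, with an odds ratio between them of 0.637 (0.535 to 0.757) in late torpor over post-reproduction and 1.36 (1.16 to 1.61) in early arousal over late torpor. miR-144-3p, from the same hairpin cluster as miR-451a in mammals, had ratios of 1.86 and 0.309 in these comparisons, and miR-486-5p, another red-cell miRNA, 1.31 and 0.376. In early arousal over post-reproduction the red-cell markers did not run together or with miR-16-5p, which was at 1.03 (0.908 to 1.16). There miR-451a-5p was at 1.18 (1.03 to 1.36), miR-144-3p at 0.575 (0.417 to 0.788) and miR-486-5p at 0.493 (0.422 to 0.574).

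Leukocyte markers had reads for 5 of 5, with a summed level of 63.8 CPM in early arousal, 91.8 CPM in late torpor and 54.6 CPM in post-reproduction. Nearly all of it was miR-142-5p at 60.9, 87.1 and 49.0 CPM. miR-150-5p was at 0 in early arousal and late torpor with 1 read in post-reproduction, and miR-142-3p had 1 read each in early arousal and late torpor. Unlike miR-142-5p, the scarce miR-223-3p and miR-155-5p had most reads in post-reproduction, miR-223-3p with 6 in early arousal, 12 in late torpor and 14 in post-reproduction, and miR-155-5p with 9, 12 and 14. The part of red cells and leukocytes in the miR-16-5p ratios was not tested.

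Mesenchymal and stellate markers, of which 4 of 5 had reads and miR-199a-5p was at 0, had a summed level that ordered the libraries as miR-497-5p did. It was 4497 CPM in early arousal, 3558 CPM in late torpor and 4311 CPM in post-reproduction. miR-143-3p, abundant in smooth muscle and fibroblasts, had an early arousal over late torpor ratio of 1.47 (1.43 to 1.51) and a late torpor over post-reproduction ratio of 0.809 (0.786 to 0.833). Its cluster partner miR-145-5p had 39 reads in early arousal, 8 in late torpor and 20 in post-reproduction. miR-199a-3p did not keep that order, with 2170 CPM in early arousal, 1980 CPM in late torpor and 2359 CPM in post-reproduction and an early arousal over post-reproduction ratio of 0.920 (0.897 to 0.944). miR-214-3p had 33 reads in early arousal, 21 in late torpor and 26 in post-reproduction, too few for its intervals to exclude 1. The part of these cells in the miR-497-5p ratios was not tested. In such whole-tissue RNA, fewer cells of a type and less of an RNA per cell cannot be told apart.

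The endothelial pair miR-126-3p and miR-126-5p, both with reads, summed to 32.1 CPM in early arousal, 38.4 CPM in late torpor and 29.6 CPM in post-reproduction. miR-122-5p had a ratio of 0.917 in early arousal over post-reproduction, 1.07 in late torpor over post-reproduction and 0.859 in early arousal over late torpor.

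The 3′ ends of the members were read from the adapter, which gave an insert of 18 to 26 nt in 96.2% to 99.3% of a member's reads. The most frequent insert length was 22 nt for miR-16-5p, miR-195-5p and miR-15b-5p, and 21 nt for miR-15a-5p and miR-497-5p. Members that were alike in length were not alike in spread. miR-15b-5p ended almost wholly at 22 nt or shorter, with 0% of inserts at 23 nt or longer in early arousal (0 of 54, with an exact interval up to 6.60%), 3.17% in late torpor and 2.08% in post-reproduction. miR-195-5p had 42.6% of inserts at 23 nt or longer in early arousal, 43.5% in late torpor and 43.4% in post-reproduction.

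**Figure D4:**
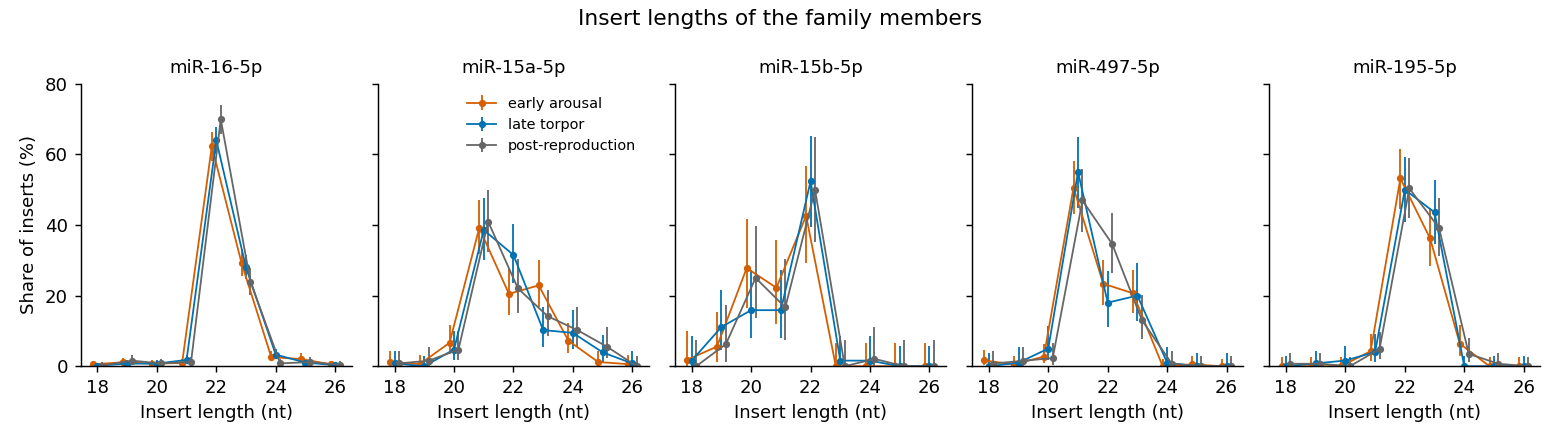
Share of inserts (%) at each insert length from 18 to 26 nt for the 5 members, with lines for early arousal, late torpor and post-reproduction and bars for exact 95% intervals. miR-16-5p and miR-195-5p peak at 22 nt, miR-15a-5p and miR-497-5p at 21 nt, and miR-15b-5p has shoulders at 20 and 21 nt.

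miR-16-5p was slightly longer in both hibernating libraries. Inserts of 23 nt or longer made up 34.4% in early arousal (30.4 to 38.6), 32.6% in late torpor (29.0 to 36.3) and 26.3% in post-reproduction (22.5 to 30.4). Most of these carried 1 more base that matches the scaffold, at 19.2%, 20.0% and 15.1% of inserts in the same order. The odds of a long insert had a ratio of 1.47 (1.12 to 1.94) in early arousal over post-reproduction and 1.35 (1.04 to 1.77) in late torpor over post-reproduction. In 20 other miRNAs of like depth, 10.0% and 25.0% had an interval that excluded 1 in these comparisons. Across the 64 listed miRNAs that had 100 inserts or more in every library, the long share was higher in 45 of 64 both in early arousal and in late torpor than in post-reproduction, by medians of 1.29 and 1.12 percentage points. A lean towards longer inserts in the hibernating libraries was thus seen in other miRNAs too. Within the family it was not uniform. miR-15a-5p had long inserts at 31.9% in early arousal, 24.4% in late torpor and 29.9% in post-reproduction. Its odds ratios were 1.10 (0.647 to 1.87) in early arousal and 0.757 (0.417 to 1.37) in late torpor, each over post-reproduction. Those of miR-195-5p were 0.968 and 1.01 in that order. Those of miR-497-5p, given below, were above 1, and miR-15b-5p had too few long inserts.

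Bases past the placed part of a read, here called added, were most frequent in miR-195-5p. The forms that carry this are shown with the added bases in capitals.
miR-195-5p, placed to the end: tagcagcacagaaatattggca
miR-195-5p with A added: tagcagcacagaaatattggcaA
miR-195-5p with T added: tagcagcacagaaatattggcaT
miR-195-5p with TT added: tagcagcacagaaatattggcaTT
miR-16-5p with A added: tagcagcacgtaaatattggcgA
miR-15a-5p with A added: tagcagcacataatggtttgtgA
miR-497-5p with A added: cagcagcacactgtggtttgtaA
miR-497-5p with T added: cagcagcacactgtggtttgtaT

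Enzymes that add A or U to the 3′ end of finished miRNAs are known in mammals, and U reads as T here. An added base that happens to match the scaffold is counted as placed, so additions can be missed. For miR-195-5p, A was added in 25 of 141 inserts in early arousal, 40 of 124 in late torpor and 33 of 143 in post-reproduction, or 17.7% (11.8 to 25.1), 32.3% (24.1 to 41.2) and 23.1% (16.4 to 30.9). T was added in 33, 11 and 26 of the same inserts, or 23.4% (16.7 to 31.3), 8.87% (4.51 to 15.3) and 18.2% (12.2 to 25.5). Late torpor was thus high for A and low for T, while A and T together stood at 41.1%, 41.1% and 41.3%.

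The odds of an added A against an added T on miR-195-5p had a ratio of 0.212 (0.0808 to 0.521) in early arousal over late torpor and 2.84 (1.15 to 7.38) in late torpor over post-reproduction. For early arousal over post-reproduction the ratio was 0.600 (0.269 to 1.32). Of the other miRNAs of like depth, 16.7%, 10.5% and 10.5% had an interval that excluded 1 in these comparisons in that order. Nearly all of them held more inserts than miR-195-5p. Some carried few added bases, such as miR-151-3p with T added in at most 0.377% of inserts in any library. Intervals of that kind could hardly exclude 1, so these shares and those below are an uneven yardstick for added bases. Odds ratios of the ends were computed after the end shares were seen, for 4 contrasts in 5 members and 3 comparisons, and 7 of these 60 intervals excluded 1. Beside the 2 for long miR-16-5p inserts, the other 5 were all of miR-195-5p and rest on the same added bases. They include A against all other ends in early arousal over late torpor, at 0.454 (0.244 to 0.833), where 10.5% of the miRNAs of like depth had an interval excluding 1. They also include T against all other ends, at 3.13 (1.45 to 7.22) in early arousal over late torpor and 0.439 (0.187 to 0.972) in late torpor over post-reproduction, where 5.56% and 0.0% did. Whether they would recur in other animals was not tested.

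In the other members the intervals of added A overlapped between libraries, as did those of added T. On miR-195-5p the intervals of added A overlapped as well, and only those of added T in early arousal and late torpor did not. A was added to 20.5% of miR-15a-5p inserts in early arousal, 14.2% in late torpor and 16.5% in post-reproduction. It was added to 10.9%, 10.0% and 11.0% of miR-16-5p inserts in the same order, where added T stayed between 0.797% and 1.29%. miR-497-5p had A added in 10.9%, 16.0% and 9.23% of inserts and T in 9.78%, 8.00% and 5.38%. After the 22 nt form of miR-16-5p the next scaffold base is T at both copies, so a T added there counts as placed. The same holds for an A added to the 21 nt form of miR-497-5p. After the 22 nt form of miR-195-5p the scaffold has C, so added bases are not equally detectable across members. miR-15b-5p was placed to its end in 90.7% of inserts in early arousal, 93.7% in late torpor and 95.8% in post-reproduction. Over the 64 listed miRNAs the median share with A added was 10.1% in early arousal, 10.5% in late torpor and 9.26% in post-reproduction, so miR-195-5p lay above that median in every library.

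**Figure D5:**
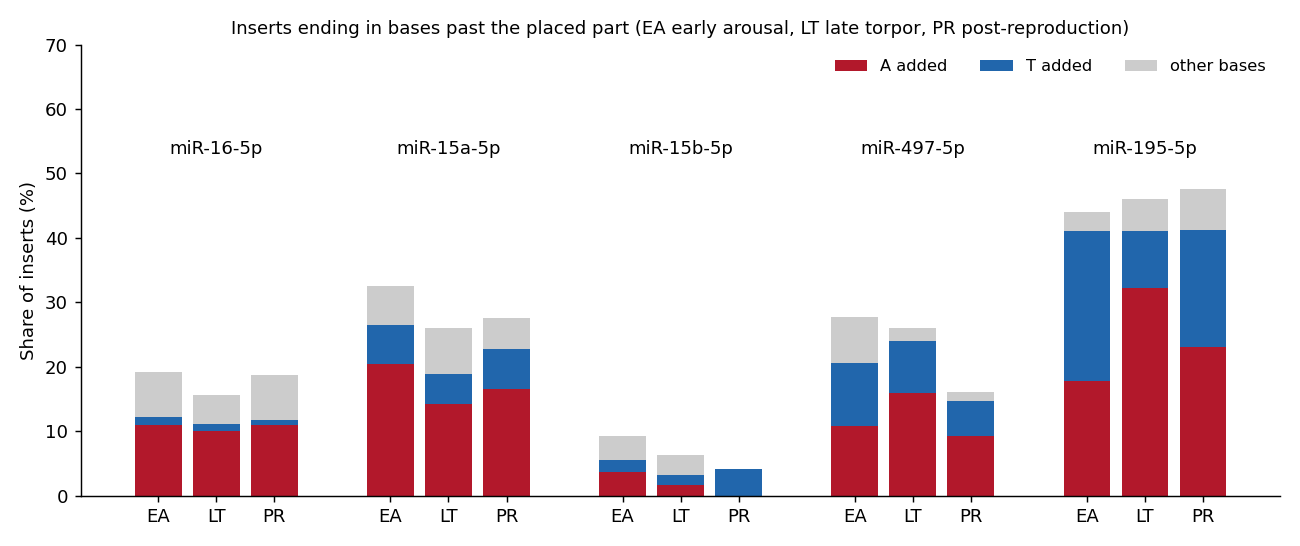
Share of inserts (%) that end in bases past the placed part, split into A added, T added and other bases, for each member in early arousal (EA), late torpor (LT) and post-reproduction (PR). miR-195-5p has the tallest bars, with A at 32.3% and T at 8.87% in late torpor against 17.7% and 23.4% in early arousal.

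For miR-497-5p the 22 nt form placed to its end made up 21.2% of inserts in early arousal, 17.0% in late torpor and 32.3% in post-reproduction, and the 21 nt form 46.7%, 51.0% and 46.2%. Inserts of 23 nt or longer made up 21.2%, 21.0% and 13.8% in that order, with odds ratios of 1.67 (0.879 to 3.28) in early arousal over post-reproduction and 1.65 (0.781 to 3.52) in late torpor over post-reproduction.

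The 5′ ends, which set the seed, were nearly fixed. No read of miR-15a-5p or miR-15b-5p began 1 or 2 bases from the usual start. miR-16-5p had 4 such reads beside 1756, and miR-195-5p had 1 beside 413. miR-497-5p differed, with 18 reads that began 1 base downstream, 4.03% of its reads with either start, of which 10 were from early arousal, 6 from late torpor and 2 from post-reproduction. Such a start moves the seed by 1 base.

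The opposite arm of the hairpins, usually degraded, left almost no reads. miR-15b had 2 reads of it, both in post-reproduction, miR-195 had 1 in early arousal and 1 in post-reproduction, and miR-16 had 1 in late torpor, on GeneScaffold_5005. miR-15a and miR-497 had none beside 434 and 429 reads of the 5p arm. The exact intervals of these shares of placed reads ran up to 0.846% and 0.856%. At this depth the opposite arms could not be compared between stages.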

How the data were processed

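Per the labels' protocols, equal amounts of liver RNA were pooled within a stage, small RNA of 18 to 30 nt was recovered by gel from about 10 µg of each pool, and libraries were made with 15 PCR cycles. The authors deposited 1 table of placed reads. Per the file headers an entry holds a sequence, a whole-number read count and a stage. The unit is thus a read count inside a text entry, recorded as "other". Reads are 30 bases, with the placed part (18 bases or more) in capitals. Aligner, genome build and filters: not given in the sources used here. Placed reads numbered 5611673 in early arousal, 5860476 in late torpor and 5614441 in post-reproduction.

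Each sequence was counted once per stage and matched exactly over 18 bases to 134 mature miRNAs written from general knowledge. No miRNA database was used. Library sizes were scaled by factors of the trimmed mean of M-values (30% and 5% trimmed), coded directly because no numeric count column exists. The factors were 1.07 in early arousal, 0.938 in late torpor and 0.999 in post-reproduction. Intervals are exact conditional binomial (Clopper-Pearson) for ratios, exact binomial for shares, exact Poisson for CPM and exact conditional for odds ratios. miRNAs of like depth had at least 100 inserts in each library and up to 3000 in all. The 3′ adapter was searched with up to 1 mismatch in 5 bases. Python 3.11.15, numpy 2.4.6, scipy 1.17.1 and matplotlib 3.10.9 were used, and the code was tested on simulated data. The miRNAs named are the 5 members, miR-424-5p, miR-503-5p, other abundant reads with the seed, opposite arms and cell type markers. The members and lists were chosen with earlier results of these data known. Alternatives changed the scaling, the match, the minimum of reads, the placement, the fold limit and the adapter search.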

Additional observations from a re-analysis of the deposited data

How the results depend on the processing

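Of 129 alternative values of single members' ratios, 128 moved by less than their intervals. Most alternatives recount the same reads or shift all ratios alike, so values could hardly leave these counting intervals. That count is therefore no measure of stability. The family's early arousal over late torpor ratio, 0.950, was 1.08 under plain scaling, 1.05 under scaling to all placed reads, 0.851 with 1 mismatch accepted and 1.30 without multiply placed reads. Plain scaling shifts every log2 ratio of that comparison by 0.19, and took miR-16-5p there to 0.872. Accepting 1 mismatch also changed the scaling, which shifts every log2 ratio of that comparison by -0.15. In late torpor over post-reproduction its shift is 0.097. The family's reads then rose only from 1117 to 1125 in early arousal and from 1111 to 1129 in late torpor. Intervals changed their side of 1 for miR-15a-5p and miR-497-5p under some scalings or matches and for miR-15b-5p with 1 mismatch accepted. Without multiply placed reads, which by construction leaves miR-15a-5p, miR-195-5p and miR-497-5p only, the family's late torpor over post-reproduction ratio turned from 1.15 to 0.892. With 1 mismatch accepted 1 member passed 1.5-fold in that comparison, miR-15b-5p at a log2 ratio of 0.59. At a 2-fold limit 0 members passed in early arousal over late torpor. When the placed part was taken as the insert, the share of miR-15a-5p inserts at 21 nt was 49.4% in early arousal and 50.8% in post-reproduction. That of miR-16-5p inserts at 22 nt was then 8.99%, 9.20% and 8.16% in early arousal, late torpor and post-reproduction, and for miR-195-5p it was 92.3%, 88.1% and 87.5%. The placed part ignores added bases, and it runs on where the first adapter base matches the scaffold. The ratio of miR-497-5p in early arousal over late torpor stayed between 1.51 and 1.96 in 9 alternatives. No paired analysis was possible because each stage has 1 pooled library. The spread between animals is therefore unknown, and reads of miR-15b-5p, from 49 to 64 per library, could not show differences under about 1.5-fold.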
